A study of Mus musculus with 12 samples.

Results

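The suppressor of cytokine signalling (SOCS) family was described in mouse hematopoietic stem cells (HSCs), the self-renewing source of all blood lineages in the bone marrow. Its members were chosen by name from the deposited table, as Socs1 to Socs7 and Cish, and all 8 were present among 14143 genes. RNA-seq had been done on HSCs of female C57BL6J mice, sorted as cells without lineage markers, positive for Sca-1 and c-kit and negative for CD48 and CD135. By CD150 intensity they were split into Ly-HSCs, which are low in CD150 and biased to the lymphoid lineages, and My-HSCs, which are high in it and biased to the myeloid lineages. Each fraction was taken from old mice of 18 months, supplied by the National Institute on Aging, and from young mice of 8 to 10 weeks by the sample labels or 8 to 12 weeks by the protocol, from the Jackson Laboratory or the university's own colony. No treatment or engineered allele is named for any group, and age and the source of the mice cannot be told apart. There were 4 groups with 3 libraries apiece, made from 3 independent groups of mice per age. The labels do not say whether same-numbered Ly-HSC and My-HSC libraries share mice, and the old ones deviated together (r of 0.210 to 0.256 across genes), so the fractions of one age may not be independent of each other. In bulk RNA, fewer cells with a transcript and less of it per cell cannot be told apart.

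SOCS proteins are feedback inhibitors of cytokine receptors. A cytokine binds its receptor, Janus kinases phosphorylate the receptor and a STAT transcription factor, and the STAT enters the nucleus and induces SOCS genes among its targets. The proteins carry an SH2 domain, which binds phosphotyrosine, and a SOCS box, which recruits elongins and the cullin Cul5 to form a ubiquitin ligase. SOCS1 and SOCS3 also carry a kinase inhibitory region that blocks Janus kinases directly. In blood, SOCS3 restrains signalling through the gp130 and granulocyte colony-stimulating factor receptors, SOCS1 that of interferons, and CISH and SOCS2 are known targets of STAT5 downstream of erythropoietin and growth hormone.

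The promoters of the members are shown first because STAT and interferon factors induce members of the family. The set of RefSeq promoter sequences used here, for GRCm38.p6, held an entry for 4 of the 8 genes, Socs1, Socs3, Socs4 and Cish. The other members were not searched. Windows of 300 bases, from 250 before to 50 after the RefSeq start, were searched on both strands for TTCNNNGAA, the palindromic letters of a STAT site, and for a pair of GAAA with 2 bases of any kind between them, as in interferon response elements. Both motifs hold the letters GAA, so their matches can overlap, though none did in these windows. Each sequence below runs 5′ to 3′ on the strand of the gene from 250 bases before to 30 bases after the start, with matches in capitals, and the first base of the transcript is counted as 1.
Cish (chr9:107296409-107296688, plus strand): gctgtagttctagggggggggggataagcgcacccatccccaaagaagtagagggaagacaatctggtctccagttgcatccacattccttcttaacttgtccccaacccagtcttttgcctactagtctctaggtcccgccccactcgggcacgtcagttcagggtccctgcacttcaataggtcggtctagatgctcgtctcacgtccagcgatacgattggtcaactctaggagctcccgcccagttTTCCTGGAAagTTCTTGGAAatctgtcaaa
Socs3 (chr11:117969337-117969616, minus strand): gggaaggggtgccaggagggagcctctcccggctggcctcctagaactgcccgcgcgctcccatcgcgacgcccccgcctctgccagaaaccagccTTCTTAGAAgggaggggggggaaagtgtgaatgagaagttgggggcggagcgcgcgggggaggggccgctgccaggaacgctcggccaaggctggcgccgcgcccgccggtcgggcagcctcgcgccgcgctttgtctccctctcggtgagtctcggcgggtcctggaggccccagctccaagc
Socs1 (chr16:10785507-10785786, minus strand): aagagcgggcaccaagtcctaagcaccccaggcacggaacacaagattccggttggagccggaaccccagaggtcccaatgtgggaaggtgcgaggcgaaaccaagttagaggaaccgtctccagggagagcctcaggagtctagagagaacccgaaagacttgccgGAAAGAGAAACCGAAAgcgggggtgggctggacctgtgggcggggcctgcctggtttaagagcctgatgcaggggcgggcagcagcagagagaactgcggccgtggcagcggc
The Cish window held 2 matches to TTCNNNGAA, TTCCTGGAA at bases 1 to 9 and TTCTTGGAA at bases 12 to 20. At least 1 match was present in 8.30% of 32851 RefSeq promoter windows of the same length and at least 2 in 0.457%. Socs3 held 1 match, TTCTTAGAA, from base -154 to -146. Socs1 held none, but held 2 overlapping matches to the paired GAAA between bases -83 and -68. At least 1 such match was present in 3.44% of windows and at least 2 in 0.225%. Socs4 held neither in its window. Only 1 start per gene was searched, and the windows of Cish and Socs3 lie inside the gene spans given below. A match is a string of letters, and binding was not measured here.

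Values are FPKM, fragments scaled to transcript length and to the mapped fragments of the library, as deposited. Because FPKM is scaled by length, levels can be compared between genes, as far as the gene lengths used by the authors hold. The value of 1 fragment was estimated from the lowest values of each library and GENCODE M21 exon lengths. This gave about 6500000 to 14500000 fragments per young library, lowest in Ly-HSC library 1. Old libraries had about 11300000 to 19500000, so depth is partly bound up with age. Genes listed at exactly 0 made up 19.3% to 34.1% of each young library and 12.1% to 22.3% of each old one. Both old libraries numbered 1 stood highest in granulocyte markers, with values given below. HSC markers were present, with 10 of 11 listed genes in the table summing to 399 to 580.2 FPKM per library, and Slamf1, which encodes CD150, was higher in My-HSCs by 2.62 ± 0.37 on the log2 scale (limma adjusted p = 0.0081). The markers sorted against, Cd48 and Flt3, summed to 2.58 to 26.7 FPKM in Ly-HSCs and to 0.571 to 4.01 FPKM in My-HSCs. After an FPKM, ± gives the SD of a group (n = 3), and after a log2 fold change, which is on the log2(FPKM + 1) scale, limma's standard error. A gene was called at a Benjamini-Hochberg adjusted p under 0.05 over 10900 tested genes, and all 8 family genes passed the filter of 1 FPKM in at least 3 libraries.

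All 8 transcripts were found in HSCs, though Socs1 and Socs3 were listed at 0 in some libraries. Over all 12 libraries their means exceeded those of 40.4% (Socs2) to 73.5% (Socs5) of all genes in the table. By the median over all 12 libraries the order was Socs5 at 16.4, Cish at 15.0, Socs4 at 11.9, Socs7 at 8.21, Socs6 at 5.41, Socs1 at 5.39, Socs3 at 5.31 and Socs2 at 4.30 FPKM. The ranges over libraries of every pair of neighbours in that order overlapped. Socs3 had the lowest maximum of the family in both young fractions, 4.46 FPKM in Ly-HSCs and 4.73 FPKM in My-HSCs, and the highest mean in old My-HSCs. In that group its range still overlapped that of the next gene, Cish. Single groups ran wider. The mean of Socs3 in old My-HSCs exceeded that of 91.3% of all genes in the table, while that of Socs2 in old Ly-HSCs exceeded 28.6%. Socs5 in young Ly-HSCs and Cish in young My-HSCs exceeded 82.6% and 81.5%.

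**Figure D1:**
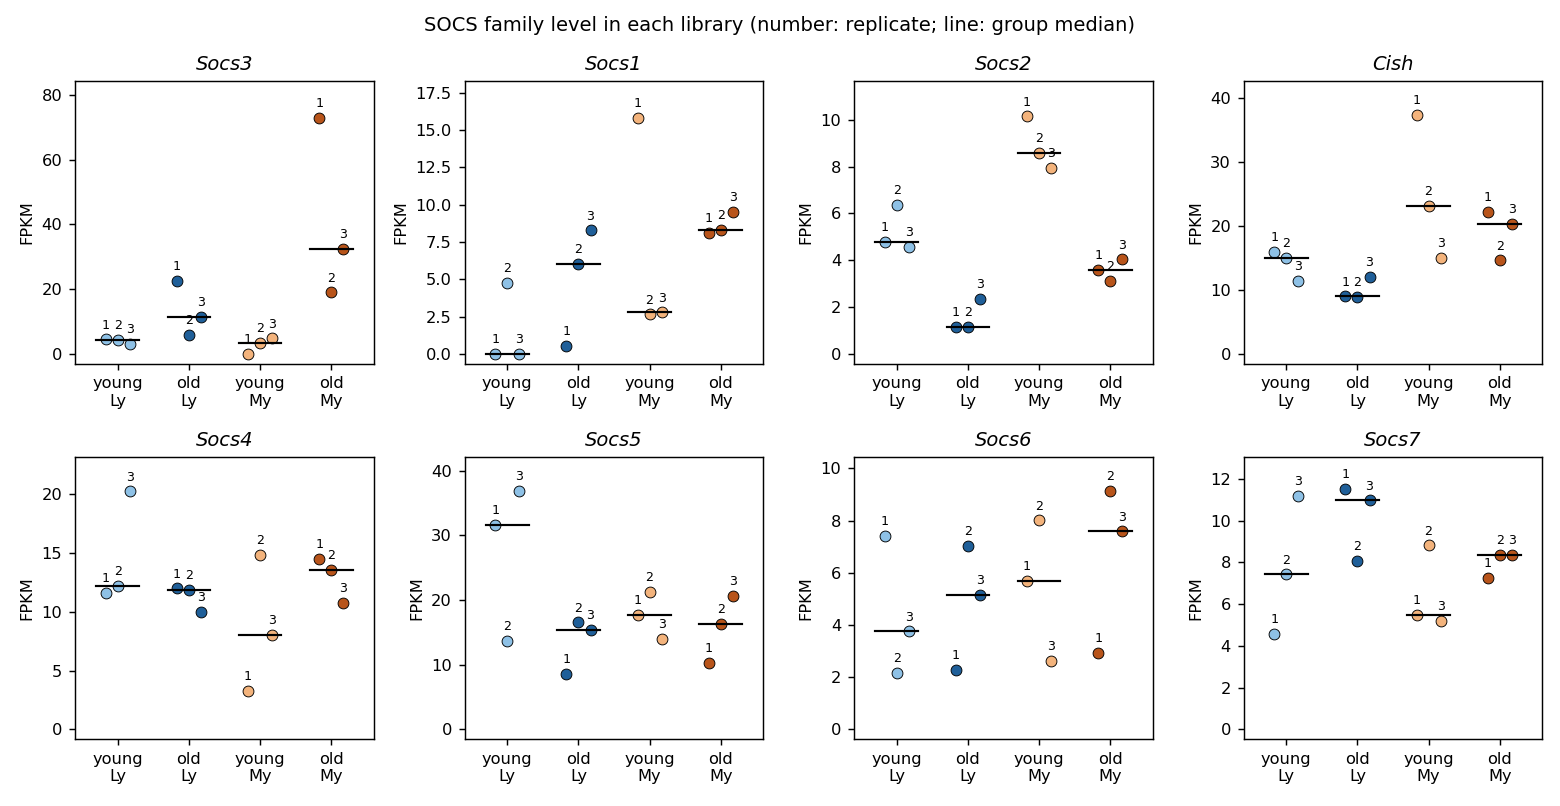
FPKM (y axis, linear, scaled per panel) of each SOCS family gene in the 3 libraries of each group (x axis); points are libraries with their replicate number and lines are group medians. Socs3 is higher and Socs2 lower in all 6 old libraries than in all 6 young ones, while Socs4, Socs6 and Socs7 overlap between the ages.

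Socs3 was the 1 member called with age. It stood at 4.46, 4.17 and 2.95 FPKM in young Ly-HSC libraries 1, 2 and 3 and reached 22.5, 5.89 and 11.4 FPKM in their old counterparts. In young My-HSCs it was listed at 0 in library 1 and stood at 3.29 and 4.73 FPKM in libraries 2 and 3, while old My-HSCs had 73.0, 19.0 and 32.5 FPKM. Every old library lay above every young one, and the lowest old value, in Ly-HSC library 2, lay close to the highest young value, in My-HSC library 3. At the estimated depth the young values above 0 stood for about 84 to 198 fragments. The 0 in young My-HSC library 1 stood for fewer than 3 fragments, or 0.0774 FPKM, an estimate that covers counting error only. Genes listed at 0 were common in these libraries, so the value is given as listed.

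Averaged over the fractions, Socs3 rose with age by 2.52 ± 0.49 on the log2 scale, 5.75-fold (limma adjusted p = 0.0276, higher in 6 of 6 old libraries). It was the 1 of 8 members called in this comparison, in which 0.844% of tested genes were called, and the old and young libraries of 2 of 8, Socs3 and Socs2, did not overlap, against 1.58% of tested genes. By p, Socs3 ranked 67 among the 10900 genes. The call was close to the threshold. Leaving out 1 library ended it in 4 cases: old Ly-HSC library 1 (adjusted p = 0.0759), old Ly-HSC library 3 (0.0708), old My-HSC library 1 (0.0829) and old My-HSC library 3 (0.0813). It was also lost with a pseudocount of 0.1 (adjusted p = 0.109), without the filter on low values (0.0593), with 1 variance weight per group (0.0892) and with the replicate number as a block in all libraries (0.0620), though not with that block in the old libraries alone (0.0393), while the fold change was positive in every alternative, from 1.71 to 3.25.

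Within the fractions, Socs3 was not called. In My-HSCs the difference of old from young was 3.66 ± 0.69 (adjusted p = 0.0536), and 4.92 with a pseudocount of 0.1, with 1 young library at 0. It passed in My-HSCs with quantile normalization (adjusted p = 0.0315), with 1 variance weight per group (adjusted p = 0.0185), on leaving out library 1 of young Ly-HSCs (adjusted p = 0.0457) and with the old libraries fitted as pairs (adjusted p = 0.0453), each with a positive fold change. The other alternatives did not pass in My-HSCs. Over all of them the limma adjusted p ran from 0.0185 to 0.274, the highest on leaving out old My-HSC library 1. Without young My-HSC library 1, the one listed at 0, the difference was 2.89 (adjusted p = 0.184). Without the 4 libraries numbered 1 it was 2.38 (adjusted p = 0.182). In Ly-HSCs, with all libraries, the difference was 1.39 ± 0.69 (adjusted p = 0.402). The interaction, by which the age difference of My-HSCs exceeded that of Ly-HSCs, was 2.27 ± 0.97 (95% interval 0.17 to 4.37, unadjusted p = 0.0364) and did not pass over all genes (adjusted p = 0.864), so the age difference was not shown to be larger in either fraction. No member was called for the interaction, where 0% of tested genes were called and 616 had an unadjusted p under 0.05. Old My-HSCs stood above old Ly-HSCs by 1.54 ± 0.69 (adjusted p = 1.0) with overlapping libraries, and young My-HSCs differed from young Ly-HSCs by -0.73 ± 0.69 (adjusted p = 0.674).

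**Figure D2:**
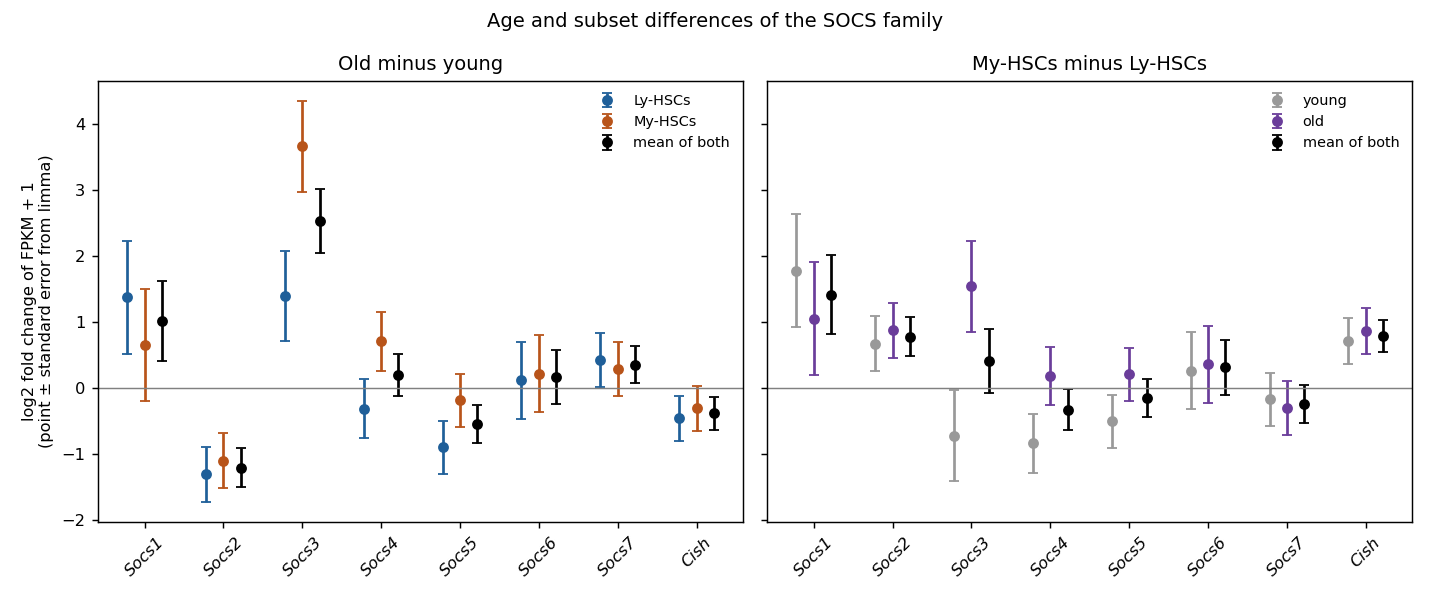
Log2 fold change on the log2(FPKM + 1) scale (y axis) of each family gene (x axis), old minus young on the left and My-HSCs minus Ly-HSCs on the right; points are limma estimates and bars their standard errors. Socs3 has the largest age estimate of the family, 2.52 as the mean of both fractions, and Socs2 the lowest, -1.21.

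Granulocyte and erythroid markers moved with Socs3 in the old libraries numbered 1. Itgam, an integrin of myeloid cells, stood at 160.0 FPKM in old Ly-HSC library 1 against 19.4 and 28.3 FPKM in libraries 2 and 3, and at 125 FPKM in old My-HSC library 1 against 23.5 and 18.0 FPKM. Of 15 listed granulocyte markers 3 were in the table, Prtn3, Mmp9 and Itgam. They summed to 1.79 to 56.9 FPKM in young and 77.8 to 297 FPKM in old Ly-HSCs, and to 14.2 to 42.4 FPKM in young and 107.5 to 300.1 FPKM in old My-HSCs, and Mmp9 was at 0 in the first library of each young fraction. Prtn3 alone was higher in every old library than in any young one, at 54.0 to 106 against at most 37.7 FPKM. In Ly-HSCs the other 2 overlapped between the ages. Itgam reached 32.9 FPKM in young library 3, and Mmp9 stood at 1.21 FPKM in young library 2 against 0.372 and 0.629 FPKM in old libraries 2 and 3. In My-HSCs both were higher in every old library. The other 12 markers were not analysed here. Of 11 erythroid markers 7 were in the table, and their sum was 110.9 and 91.4 FPKM in old Ly-HSC and My-HSC library 1, against 9.51 to 25.0 FPKM in the other 10 libraries. Markers of T and natural killer cells summed to 19.0 FPKM in old Ly-HSC library 1, against 2.23 and 3.61 FPKM in libraries 2 and 3. In old My-HSCs library 1 had the lowest such sum, 7.98 FPKM. The receptor gene Il2rb stood at 9.22 and 9.86 FPKM in old Ly-HSC and My-HSC library 1 and at or below 0.232 FPKM elsewhere. The part of mature cells in the Socs3 values was not tested. Without the 4 libraries numbered 1, Socs3 was 1.71 on the log2 scale higher in old HSCs (adjusted p = 0.0774), and every remaining old library was still above every young one.

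The genes whose pattern was most like that of Socs3 over the 12 libraries were Ptgs2, which encodes the inducible prostaglandin synthase, Phf11d and the J-domain gene Dnajc16, with Pearson's r of 0.904, 0.903 and 0.887 on the log2 scale. Ptgs2 reached 39.7, 1.12 and 7.43 FPKM in the 3 old Ly-HSC libraries and 51.8, 5.29 and 20.8 FPKM in old My-HSCs, and was at or below 0.801 FPKM in every young library. It thus followed the order of Socs3 within each old group, with library 1 highest and library 2 lowest. These r values describe 12 libraries that fall into 4 groups and carry no test.

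Socs2, the family member that restrains growth hormone signalling, separated the libraries by age and, within each age, by fraction. It stood at 4.78, 6.38 and 4.56 FPKM in young and 1.15, 1.15 and 2.34 FPKM in old Ly-HSCs. Among My-HSCs it stood at 10.1, 8.58 and 7.94 FPKM in the young and, in the old, at 3.59, 3.11 and 4.04 FPKM. All 6 old libraries lay below all 6 young ones, and within each age every My-HSC library lay above every Ly-HSC library. The values rested on about 123 to 1297 fragments per library. On GRCm38 the gene (ENSMUSG00000020027.18) lies on chromosome 10 from 95385362 to 95417180, with 14 annotated transcripts.

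No Socs2 difference passed the test. Averaged over the fractions, the age difference was -1.21 ± 0.30 (limma adjusted p = 0.0850, rank 156 by p), and it passed with quantile normalization alone among the alternatives (-1.67, adjusted p = 0.0122). It was -1.31 ± 0.42 in Ly-HSCs (adjusted p = 0.203) and -1.11 ± 0.42 in My-HSCs (adjusted p = 0.536). The interaction was 0.20 ± 0.59, with a 95% interval of -1.07 to 1.48. My-HSCs stood above Ly-HSCs by 0.77 ± 0.30 as the mean of both ages (adjusted p = 0.330), by 0.67 ± 0.42 in the young (adjusted p = 0.495) and by 0.87 ± 0.42 in the old (adjusted p = 1.0). The genes most like Socs2 were Tnks1bp1, the vitamin D receptor gene Vdr and the intermediate filament gene Nes, with r of 0.872, 0.863 and 0.855 over the 12 libraries.

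Cish, like Socs2 a target of STAT5, had the family's highest single value in young HSCs, 37.3 FPKM. It stood at 15.9, 15.0 and 11.4 FPKM in young and 8.97, 8.89 and 12.0 FPKM in old Ly-HSCs. In My-HSCs it stood at 37.3, 23.1 and 15.0 FPKM in the young and 22.2, 14.6 and 20.3 FPKM in the old libraries. The old fractions did not overlap, My-HSCs being higher, whereas the young fractions overlapped, with young My-HSC library 3 inside the range of young Ly-HSCs. As the mean of both ages, My-HSCs stood above Ly-HSCs by 0.78 ± 0.24 on the log2 scale, 1.72-fold, which did not pass (adjusted p = 0.213, rank 350 by p). It was 0.71 ± 0.35 in young (adjusted p = 0.392) and 0.86 ± 0.35 in old HSCs (adjusted p = 1.0). No member was called between the fractions as the mean of both ages, in which 0.413% of tested genes were called, and 3 of 8, Socs1, Socs2 and Cish, had an unadjusted limma p under 0.05, against 11.2% of tested genes. The libraries of the 2 fractions, taken over both ages, overlapped for all 8 members, against 1.17% of tested genes without overlap.

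By age, Cish stood at -0.46 ± 0.35 in Ly-HSCs (adjusted p = 0.581) and -0.31 ± 0.35 in My-HSCs (adjusted p = 0.949), with overlapping libraries in both. The genes most like it were Arhgef10l, Epb41l4b and Flrt1, with r of 0.903, 0.884 and 0.879. On GRCm38, Cish (ENSMUSG00000032578.7) lies on chromosome 9 from 107296026 to 107302784, with 5 annotated transcripts. The window shown above, with 2 matches to the STAT letters, surrounds 1 RefSeq start inside that span. The antisense gene Gm17041 shares 479 bases of exon with Cish and the pseudogene Gm17040 shares 261. The library kit marks strand, but no source used here says whether the counting used it, so reads of these genes could be included.

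Socs1, which restrains interferon signalling, varied widely within groups. It was listed at 0 in young Ly-HSC libraries 1 and 3 and stood at 4.78 FPKM in library 2, against 0.545, 6.01 and 8.27 FPKM in old Ly-HSCs. Among My-HSCs it stood at 15.8, 2.64 and 2.78 FPKM in the young and, in the old, at 8.12, 8.30 and 9.50 FPKM. The old My-HSC libraries were thus close together, while in the other groups single libraries stood apart. The zeros allow up to 0.159 and 0.0997 FPKM, taken as 3 fragments. No difference passed: the age difference was 1.37 ± 0.85 in Ly-HSCs (adjusted p = 0.498) and 0.65 ± 0.85 in My-HSCs (adjusted p = 0.962), and My-HSCs stood above Ly-HSCs by 1.41 ± 0.60 as the mean of both ages (adjusted p = 0.399). The genes most like Socs1 were Arhgef12, the gap junction gene Gja1 and the Argonaute gene Ago3, with r of 0.939, 0.927 and 0.924. Socs1 (ENSMUSG00000038037.4) lies on chromosome 16 from 10782240 to 10785536 and Socs3 (ENSMUSG00000053113.3) on chromosome 11 from 117966079 to 117970047, both on the minus strand of GRCm38.

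Socs4 and Socs5, which restrain epidermal growth factor receptor signalling, had higher means than Cish in Ly-HSCs of both ages and lower means in My-HSCs of both ages. Socs5 stood at 31.6, 13.7 and 36.9 FPKM in young and 8.60, 16.5 and 15.4 FPKM in old Ly-HSCs, with overlap through young library 2. It stood at 17.7, 21.3 and 14.0 FPKM in young and 10.3, 16.3 and 20.6 FPKM in old My-HSCs. The age difference of Socs5 was -0.90 ± 0.40 in Ly-HSCs (adjusted p = 0.354) and -0.19 ± 0.40 in My-HSCs (adjusted p = 0.984). Socs4 ranged from 9.95 to 20.2 FPKM over the Ly-HSC libraries and from 3.27 to 14.8 FPKM over the My-HSC libraries, the lowest value being young My-HSC library 1. Its age difference was -0.32 ± 0.44 in Ly-HSCs (adjusted p = 0.797) and 0.71 ± 0.44 in My-HSCs (adjusted p = 0.856). The gene most like Socs4 was Cul2, a cullin that also pairs with elongins, at r of 0.926, and the gene most like Socs5 was Dnajc18, at r of 0.920. On GRCm38, Socs4 lies on chromosome 14 from 47276931 to 47296102 and Socs5 on chromosome 17 from 87107679 to 87137839.

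Socs6 and Socs7, which bind insulin receptor substrates and related signalling proteins, overlapped between all groups. Socs6 ranged from 2.18 to 9.15 FPKM over the 12 libraries, with a wide spread in every group. Its age difference was 0.12 ± 0.58 in Ly-HSCs (adjusted p = 0.949) and 0.21 ± 0.58 in My-HSCs (adjusted p = 0.989), with 95% intervals of -1.14 to 1.37 and -1.04 to 1.47. Socs7 ranged from 4.56 to 11.5 FPKM, and its age difference was 0.42 ± 0.41 (adjusted p = 0.689) and 0.29 ± 0.41 (adjusted p = 0.966) in the same order, with intervals of -0.46 to 1.29 and -0.59 to 1.17. The intervals thus include changes of more than 1 on the log2 scale in both genes, so that sameness with age was not shown. The genes most like Socs6 and Socs7 were the importin gene Ipo7, at r of 0.854, and the replication gene Gins1, at r of 0.930. On GRCm38, Socs6 lies on chromosome 18 from 88665224 to 88927481 and Socs7 on chromosome 11 from 97362551 to 97398542.

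By fraction these 4 genes did not pass either. As the mean of both ages, My-HSCs minus Ly-HSCs was -0.33 ± 0.31 for Socs4 (adjusted p = 0.760), -0.15 ± 0.29 for Socs5 (adjusted p = 0.897), 0.31 ± 0.41 for Socs6 (adjusted p = 0.838) and -0.24 ± 0.29 for Socs7 (adjusted p = 0.815). No member was called with age in Ly-HSCs alone or in My-HSCs alone, where 0.349% and 0.211% of tested genes were called, and 2 of 8 had an unadjusted limma p under 0.05 in each, Socs2 and Socs5 in Ly-HSCs and Socs2 and Socs3 in My-HSCs, against 13.3% and 7.21% of tested genes. In each of these 2 comparisons the libraries of 2 of 8 members did not overlap, Socs3 higher and Socs2 lower in the old, against 16% of tested genes in Ly-HSCs and 19.1% in My-HSCs. No member was called between the fractions within the young or the old, where 0.119% and 0.0275% were called, with 0 and 2 of 8 at an unadjusted p under 0.05, against 13.8% and 4.03% of tested genes. Young libraries of the fractions did not overlap for 1 of 8 members, Socs2, against 13.4% of tested genes, and old libraries for 2 of 8, Socs2 and Cish, against 16.7%.

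In the summed family message, the share of Socs3 was higher and that of Socs2 lower in all 6 old libraries than in any young one. The 8 genes summed to 60.3 to 95.5 FPKM in the young libraries, to 65.4 to 75.6 FPKM in old Ly-HSCs and to 92.3 to 142 FPKM in old My-HSCs. Socs3 made up at most 7.85% of the sum in any young library and 9.01% to 51.5% in the old, and Socs2 made up 5.01% to 13.2% in the young and 1.7% to 3.56% in the old. Old My-HSC library 1, in which Socs3 alone made up 51.5%, had the highest sum. These shares restate the levels above and carry no test of their own. Among the members themselves, Socs2 and Cish varied most alike over the 12 libraries, with Pearson's r of 0.772 on the log2 scale, and Socs2 and Socs3 most opposed, with r of -0.571, a description of libraries that share 4 groups.

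**Figure D3:**
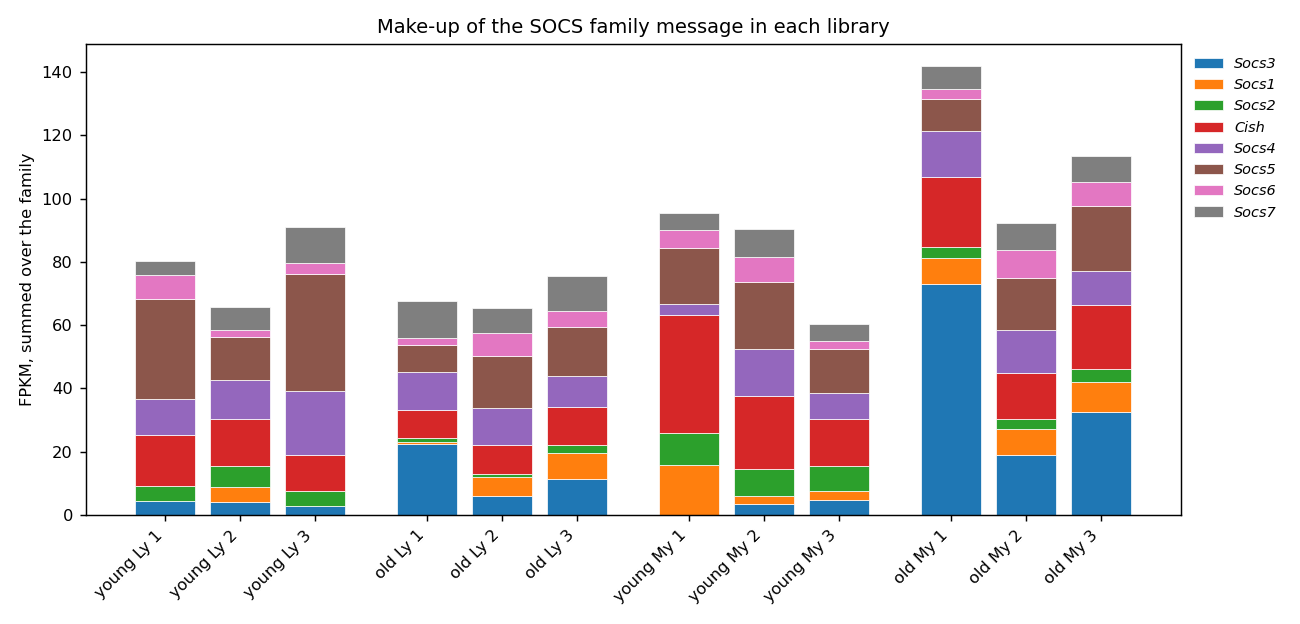
FPKM of the 8 family genes stacked for each library (y axis, starting at 0; x axis, group and replicate number). The Socs3 segment is at most 4.73 FPKM in a young library and reaches 73.0 FPKM in old My-HSC library 1, while the Socs2 segment is thinner in all 6 old libraries.

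The signalling chain around the family was described by lists of genes drawn up by their place in the pathway. The lists were chosen with earlier results of these data known. Their counts and medians therefore describe these libraries and are no independent support. Quantile normalization moved the median age difference of all tested genes from 0.13 to -0.018, and with it the share of called genes that were higher in old HSCs was 73.8%, against 89.1% as reported. Janus kinases and STATs had all 11 genes tested and none called by limma in any comparison. As the mean of both fractions 7 of 11 were higher in old HSCs, where 62.7% of all tested genes were higher, with a median log2 fold change of 0.28 beside 0.13 over all tested genes. Of the 11, 3 had an unadjusted p under 0.05, against 14.7% of all tested genes, Jak1 and Stat3 on the higher side and Tyk2 on the lower. Stat3, the factor that induces Socs3 downstream of gp130, stood at 41.3 ± 5.91 FPKM in young and 42.6 ± 0.607 FPKM in old Ly-HSCs, and at 27.9 ± 1.49 and 42.3 ± 4.94 FPKM in young and old My-HSCs. Its age difference in My-HSCs was 0.58 ± 0.19 (adjusted p = 0.452), with every old library above every young one. Stat5a and Stat5b, which induce Cish and Socs2, stood at 0.34 ± 0.28 (adjusted p = 0.617) and 0.17 ± 0.23 (adjusted p = 0.798) with age as the mean of both fractions. The kinase genes Jak2 and Tyk2 stood at -0.08 ± 0.14 (adjusted p = 0.852) and -0.76 ± 0.21 (adjusted p = 0.124).

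Of 31 cytokine receptor genes listed 25 were tested, and 17 were higher in old HSCs as the mean of both fractions, near the 62.7% of all tested genes, with a median of 0.22. Without the 4 libraries numbered 1, 14 of 25 were higher, with a median of 0.12, where 6544 of all 10900 tested genes were higher. Osmr, the receptor subunit that pairs with gp130 for oncostatin M, was the 1 called gene of 25, in My-HSCs (adjusted p = 0.0263), where 0.211% of tested genes were called. Osmr passed the filter through old My-HSCs alone, so its call is no support for a difference beyond the levels given next, and it was lost with quantile normalization (0.151), with a pseudocount of 0.1 (0.0915), with the replicate block (0.0583) and on leaving out any 1 of the 6 My-HSC libraries (0.0858 to 0.162) or old Ly-HSC library 2 (0.0632) or 3 (0.0578), and without the 4 libraries numbered 1 (0.138). It stood at 3.69, 3.61 and 2.82 FPKM in old My-HSCs and at or below 0.0628 FPKM in the other 9 libraries, and so was high in the group where Socs3 was highest. Il6st, which encodes gp130, stood at 0.32 ± 0.26 (adjusted p = 0.621) with age as the mean of both fractions. Of the SOCS box ligase 7 of 9 genes were tested and all 7 lay higher in old HSCs in that comparison, with a median of 0.42. None was called and none had an unadjusted p under 0.05. With either other scaling 6 of 7 lay higher, and 5 of 7 without the libraries numbered 1. Of all 10900 tested genes, 6394 lay higher with median-of-ratios scaling, 5252 with quantile normalization and 6544 without the libraries numbered 1. With age, Ube2f stood at 1.11 ± 0.47 (adjusted p = 0.619) and Cul2 at 1.34 ± 0.59 (adjusted p = 0.679) in My-HSCs. In Ly-HSCs Ube2f stood at 0.21 ± 0.47 (adjusted p = 0.882) and Cul2 on the lower side, at -0.96 ± 0.59 (adjusted p = 0.496). As the mean of both fractions, the comparison of the counts above, Arih2 had the smallest limma p of the 7, at 0.42 ± 0.20 (adjusted p = 0.353). There Ube2f stood at 0.66 ± 0.33 (adjusted p = 0.389) and Cul2 at 0.19 ± 0.42 (adjusted p = 0.889). Among 14 tested genes of other inhibitors 10 lay higher and 4 lower, with a median of 0.13. None was called and 2 had an unadjusted p under 0.05, against 14.7% of all tested genes. With quantile normalization or without the libraries numbered 1, 7 of 14 lay higher, beside 5252 and 6544 of all 10900 tested genes. The adaptor Sh2b3, which restrains Jak2, stood at -0.59 ± 0.21 (adjusted p = 0.206) and the phosphatase Ptpn2 at -0.54 ± 0.16 (adjusted p = 0.144).

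Among other genes that STATs induce, 2 of 20 tested were called with age as the mean of both fractions, both higher, where 0.844% of all tested genes were called. Pim1, a serine/threonine kinase, rose by 0.93 ± 0.15 (adjusted p = 0.00915, and 0.00385 to 0.0306 over the alternatives), from 168 ± 17.0 to 294 ± 44.6 FPKM in Ly-HSCs and from 166 ± 50.9 to 341 ± 44.8 FPKM in My-HSCs. Junb, a subunit of the transcription factor AP-1, rose by 1.06 ± 0.19 (adjusted p = 0.0179), and its value is shared with the immediate early genes, where it was the 1 called of 9 tested. The Junb call was lost without the libraries numbered 1 (adjusted p = 0.15), without the filter (0.0511) and on leaving out old Ly-HSC library 1 (0.0516) or 3 (0.0556), old My-HSC library 1 (0.0529), 2 (0.0629) or 3 (0.0535), or young My-HSC library 1 (0.0639) or 2 (0.0512). Of the 20 STAT targets 16 lay higher in old HSCs, against 62.7% of all tested genes, with a median of 0.87 beside 0.13. With quantile normalization 15 of 20 lay higher, against 5252 of all 10900 tested genes, with a median of 0.50 beside -0.018. Among the old libraries of a fraction, number 1, which is high in granulocyte and erythroid markers, was the highest for 9 of 20 targets in Ly-HSCs and 9 of 20 in My-HSCs, such as Cebpd at 31.6 FPKM against 3.77 and 1.53 FPKM in old Ly-HSCs. Without the 4 libraries numbered 1, 17 of 20 lay higher, against 6544 of all 10900 tested genes, with a median of 0.53 beside 0.11. In that setting 1 was called, Pim1. With all libraries and as the mean of both fractions, Socs3, Pim1 and Junb were called. Cish and Socs2, which STATs also induce, lay lower in old HSCs without passing. A link between these genes was not tested. Of the 20 immediate early genes listed 10 were in the table, and 9 of 9 tested lay higher with age as the mean of both fractions, with a median of 0.72. In Ly-HSCs alone 5 of 9 lay higher and 4 lower, where 62.4% of all tested genes were higher. Without the libraries numbered 1, 5 of 9 lay higher in the mean of both fractions, with a median of 0.30. In that setting 6544 of all 10900 tested genes were higher, with a median of 0.11.

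**Figure D4:**
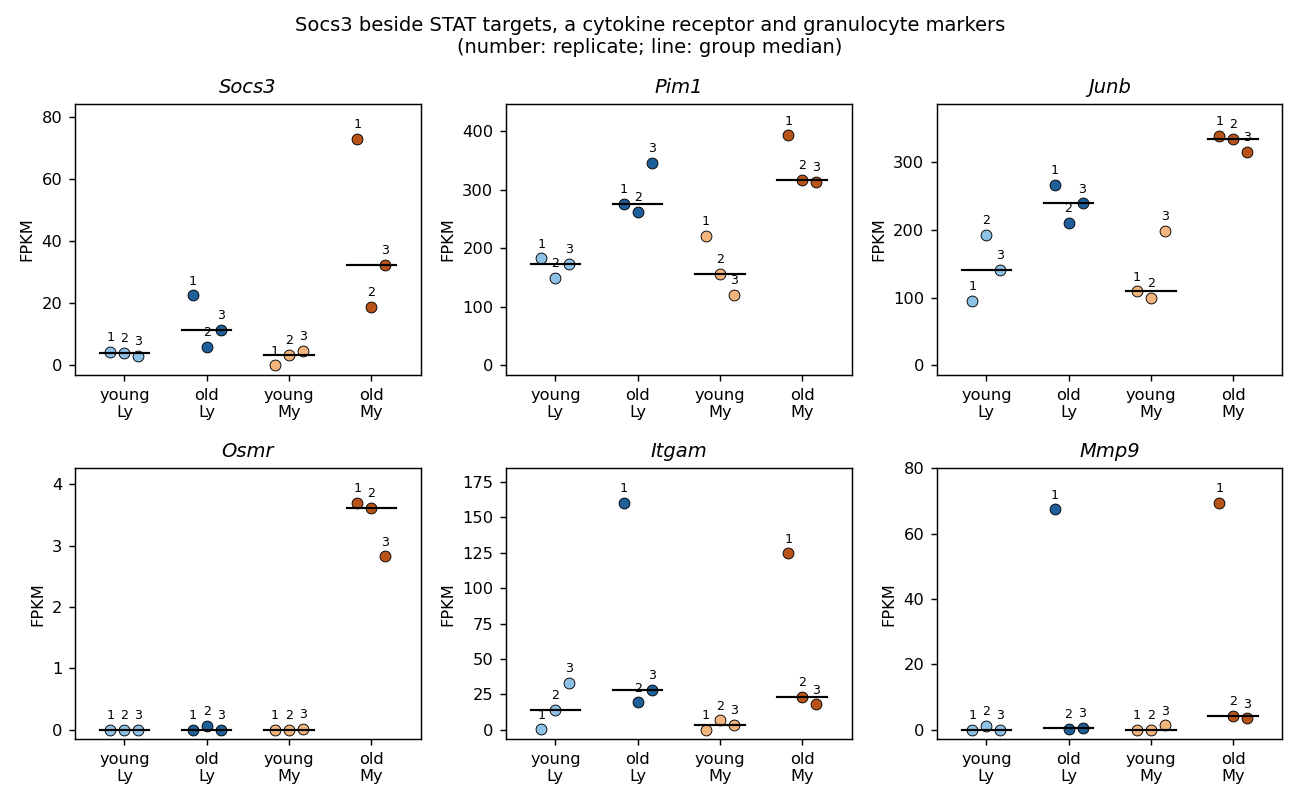
FPKM (y axis, linear, scaled per panel) by library in the 4 groups (x axis) for Socs3, the STAT targets Pim1 and Junb, the receptor gene Osmr and the granulocyte markers Itgam and Mmp9; numbers are replicates and lines group medians. Library 1 is highest for Socs3, Itgam and Mmp9 in both old groups, at 73.0 FPKM for Socs3 in old My-HSCs, while Pim1 and Junb are higher in all 6 old libraries.

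**Figure D5:**
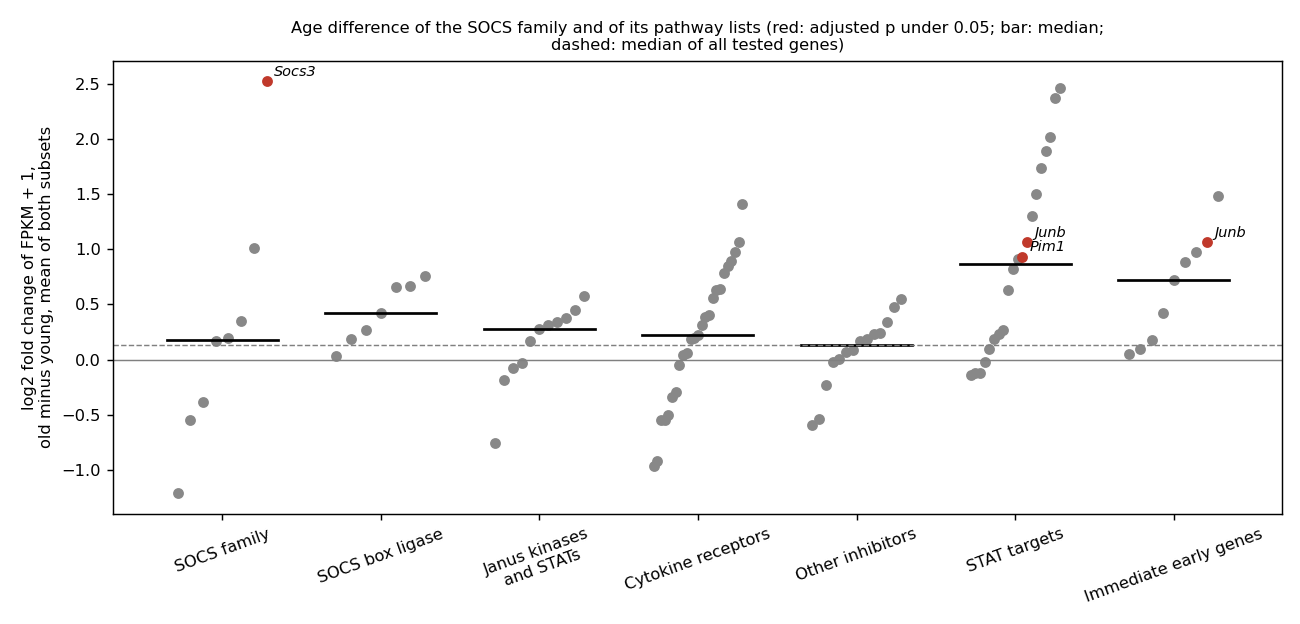
Log2 fold change of FPKM + 1 with age, as the mean of both fractions (y axis), for each tested gene of the SOCS family and of 6 pathway lists (x axis); each point is a gene, red where the adjusted p is under 0.05, bars are list medians and the dashed line is the median of all tested genes, 0.13. Socs3 at 2.52 stands above every other family gene, and the median of the STAT targets, 0.87, is the highest of the lists, as it is not with quantile normalization (0.50, against 0.60 for the immediate early genes).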

How the data were processed

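mRNA-enriched RNA-seq libraries were made with a stranded kit and read as paired ends, per the labels' protocols. The authors deposited FPKM per gene and library. Per the submitters' processing notes, the tools were bcl2fastq 2.17, STAR and DESeq2, with the GRCm38 build, and no step is named for any of them. No source used here gives the annotation, the filter on genes or the use of strand.

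All 12 libraries, assigned to groups by their titles, entered 1 group-means model of log2(FPKM + 1), for the 10900 of 14143 genes with at least 1 FPKM in at least 3 libraries, by limma 3.58.1 (R 4.3.3) with a trended prior, which had 5.11 degrees of freedom beside 8 residual ones. All tests were two-sided and adjusted over every tested gene by the Benjamini-Hochberg method. The fit was tested on simulated data with independent normal noise of 1 spread per gene. Those data held neither zeros nor deviations shared between libraries, so they cannot show the effect of either. Depth was estimated by multiplying low FPKM by GENCODE M21 exon length and finding the common step, and 61.8% to 76.4% of low values lay within 0.15 of a whole number of steps. Deviations of same-numbered old libraries of the 2 fractions correlated at 0.210 to 0.256 across genes, and those of young libraries at 0.00233 to 0.0482. Old Ly-HSC library 2 and old My-HSC library 3, which differ in number, correlated at 0.106. Whether same-numbered libraries of either age share mice was not tested. Named genes were all 8 members, genes of fixed pathway lists that were called or had the smallest p with age, a few core signalling genes, and the 3 genes of highest r with each member. Slamf1, Jak1, Cebpd, Il2rb and the cell markers printed beside Socs3 were picked from the lists after their values were seen. Some results on genes of these lists are not reported here. Members and lists were chosen with earlier results of these data known. Alternatives changed the pseudocount, filter, scaling, weights, libraries and replicate block.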

Additional observations from a re-analysis of the deposited data

How the results depend on the processing

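Over the alternatives, 814 member values kept their direction and side of the threshold, 5 newly passed, 9 no longer passed and 16 changed sign. The cause of these changes was not tested. Precision is limited by 3 libraries a group and by the zeros of Socs1 and Socs3, and the estimated depth was lowest in young Ly-HSC library 1.

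The number of members called with age as the mean of both fractions, 1 as reported, was 0 with a pseudocount of 0.1, without the filter on low values, with the replicate block, with 1 weight per group and without the 4 libraries numbered 1, and 2 with quantile normalization. In My-HSCs, where it was 0, it was 1 with quantile normalization, with 1 weight per group and with the block in old libraries alone. Leaving out 1 library gave 0 to 1 in both comparisons. For Socs3 with age as the mean of both fractions, the limma adjusted p ran from 0.0269 to 0.109.

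The number of genes called with age in Ly-HSCs, 38 as reported, was 24 with median-of-ratios scaling, 14 with quantile normalization, 15 with the replicate block, 9 with 1 weight per group, 0 with the compared libraries alone, 11 without the 4 libraries numbered 1, and 7 to 223 on leaving out 1 library. In My-HSCs, 23 became 1 with a pseudocount of 0.1, 56 without the filter, 9 with the replicate block, 71 with weights, 36 with the compared libraries alone, 4 without the libraries numbered 1, and 0 to 36 on leaving out 1 library. As the mean of both fractions, 92 became 39 without the libraries numbered 1 and 42 to 197 on leaving out 1 library.

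Between the young fractions, 13 became 22 with a pseudocount of 0.1, 2 without the filter, 4 with the replicate block, 8 with it in old libraries alone, 0 with weights or with the compared libraries alone, 32 without the libraries numbered 1, and 0 to 299 on leaving out 1 library. Between the old fractions, 3 became 1 with a pseudocount of 0.1 or with the replicate block, 29 without the filter, 8 with quantile normalization, 69 with weights, 12 with the compared libraries alone, 0 without the libraries numbered 1, 19 with the block in old libraries alone, and 0 to 6 on leaving out 1 library. As the mean of both ages, 45 became 69 without the filter, 94 with the block in old libraries alone, and 14 to 111 on leaving out 1 library. For the interaction, 0 became 6 without the filter.

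Signs changed for values that did not pass. Socs3 between fractions became -0.053 as the mean of both ages with a pseudocount of 0.1, and 0.13 in the young without the libraries numbered 1. Without those libraries Socs4 with age became -0.18 as the mean of both fractions and Socs5 became 0.076 in My-HSCs. With quantile normalization Socs6 became -0.28 in Ly-HSCs and -0.097 as the mean of both fractions. On leaving out 1 library, Socs3 between the young fractions ran from -1.22 to 0.042, Socs4 with age as the mean from -0.053 to 0.42 and Socs5 in My-HSCs from -0.40 to 0.066. Socs6 with age ran from -0.22 to 0.49 in Ly-HSCs, -0.15 to 0.63 in My-HSCs and -0.018 to 0.37 as the mean, and Cish in My-HSCs from -0.62 to 0.0091. The replicate block, in all libraries or in the old ones alone, changed no other member's call. The alternatives without the 4 libraries numbered 1 and with the block in old libraries alone were chosen after the data had been seen.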
